A study of Malus domestica with 6 samples.

Results

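Anthocyanins colour red apple skin, and the last steps that fix them in the cell are the attachment of a sugar and the passage into the vacuole. The genes described here are 3 rows of the 48602 listed for fruit skin, taken by their identifiers in the GDDH13 apple genome. Their list uses no measured value, but the genes were chosen with earlier results of these data known. The list that chose them names MD01G1234400 and MD07G1306900 as UDP-glucose flavonoid 3-O-glucosyltransferases and MD17G1272100 as the anthocyanin glutathione S-transferase. The files pair no identifier with a name, so these roles rest on that list and were not checked in sequence. GDDH13 identifiers carry the chromosome number behind the letters MD, which places the genes on chromosomes 1, 7 and 17.

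RNA was sequenced from the skin of mature fruit of the apple cultivar 'Royal Gala' (Malus domestica), with 3 libraries from plants carrying a miR172 transgene and 3 libraries from wild-type (WT) plants. The title of the study ties anthocyanin production to miR172, a plant microRNA whose targets are transcription factors of the APETALA2 type. The labels name neither the promoter of the transgene nor the transgenic line or lines, and do not say which plants or fruit a library came from. The p-values thus set the difference between genotypes only against the spread among these libraries, and part of that spread may be technical. An effect of a single transgenic line cannot be told apart from one of miR172. Flower libraries, also part of the study's design, were not analysed here.

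Flavonoid 3-O-glucosyltransferases move a sugar from a UDP-sugar onto the unstable anthocyanidin made by anthocyanidin synthase, which turns it into a stable, water-soluble anthocyanin. In apple skin the main such pigment is a galactoside of cyanidin. Glutathione S-transferases of the anthocyanin type bind the finished pigment and are needed for it to reach the vacuole, where it is stored. In Arabidopsis thaliana and petunia, mutants that lack this transferase accumulate little anthocyanin.

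Whole reads recovered from the deposited values totalled 17012710 to 23702606 per library. Levels are given in FPKM (fragments per kilobase of gene, scaled by the authors between libraries), which are per length and so allow genes to be set side by side. All 3 genes passed the filter of a mean of 1 FPKM over the 6 libraries, which 24668 genes did. The level of miR172, of its targets and of other pigment genes was not analysed here, because no table pairs the identifiers with names.

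All 3 genes were lower in miR172 skin than in WT skin. The transferase gene linked to vacuolar transport fell most on average, to 42.2 ± 42.6 FPKM in miR172 skin against 822 ± 199.5 FPKM in WT skin (SD, n = 3 each). The more abundant glucosyltransferase gene fell to 24.9 ± 12.7 FPKM in miR172 skin against 149 ± 28.5 FPKM in WT skin, and the less abundant one to 1.90 ± 0.661 FPKM against 21.1 ± 13.7 FPKM (SD, n = 3 each). In bulk tissue, fewer cells that express a gene and less of its RNA in each cell cannot be told apart.

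**Figure D1:**
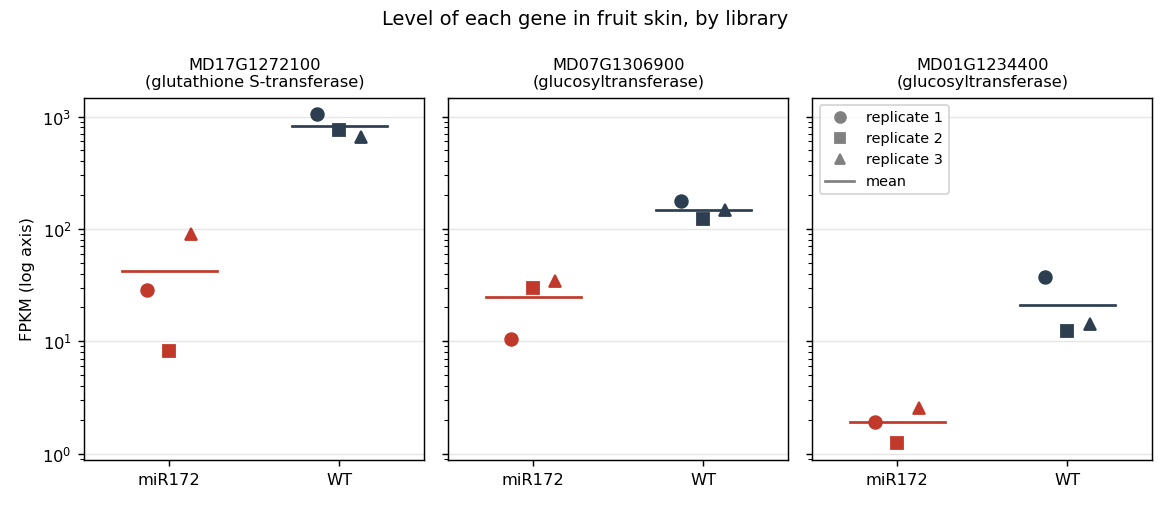
FPKM of each gene on a log axis in the 3 miR172 and 3 WT fruit skin libraries, 1 point per library with its replicate number as the marker shape and a line at the mean. For each gene all miR172 points lie under all WT points, and the miR172 points of MD17G1272100, from 8.14 to 90.0 FPKM, are the most widely spread.

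The glutathione S-transferase gene MD17G1272100 stood at 28.5, 8.14 and 90.0 FPKM in miR172 replicates 1, 2 and 3, and at 1045, 760 and 661 FPKM in WT replicates 1, 2 and 3. The genotypes did not overlap, the lowest WT library being 7.34 times the highest miR172 library. Among all rows of a library, ordered from the most abundant, it ranked 4139, 12047 and 1439 in the miR172 replicates and 52, 105 and 115 in the WT replicates. It was thus among the 115 most abundant rows of every WT library and ranked no higher than 1439 in any miR172 library. Its values came from 752, 228 and 1720 recovered reads in the miR172 replicates and 19813, 12204 and 15169 in the WT replicates.

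By group means MD17G1272100 was 19.5-fold lower in miR172 skin. On the log2(FPKM + 1) scale, on which the test was run, the change of MD17G1272100 was -4.80 ± 0.72 (standard error), with limma adjusted p = 0.0067 and a 95% interval of -6.45 to -3.15. The size of the fall rested on which miR172 libraries were counted: by group means it was 44.8-fold without miR172 replicate 3, the highest, and 13.9-fold without miR172 replicate 2, the lowest. The miR172 libraries differed among themselves 11.1-fold, against 1.58-fold among the WT libraries. Counting error was 2.41 to 6.62% of the value in the miR172 libraries, far less than their coefficient of variation of 101%.

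Of the glucosyltransferase genes, which add the sugar, MD07G1306900 was the more abundant in all 6 libraries. It stood at 10.5, 29.9 and 34.3 FPKM in miR172 replicates 1, 2 and 3, and at 178, 122 and 146 FPKM in WT replicates 1, 2 and 3. The genotypes did not overlap, and the lowest miR172 library was replicate 1, not replicate 2 as for the transport gene. Its rank by abundance was 10270, 4040 and 3981 in the miR172 replicates and 586, 1214 and 879 in the WT replicates. By group means MD07G1306900 was 5.97-fold lower in miR172 skin, and the log2 change was -2.67 ± 0.43 (standard error), with limma adjusted p = 0.0088 and a 95% interval of -3.65 to -1.69. It was covered by 453, 1374 and 1075 recovered reads in the miR172 replicates and 5542, 3196 and 5499 in the WT replicates.

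The other glucosyltransferase gene, MD01G1234400, stood at 1.92, 1.23 and 2.55 FPKM in miR172 replicates 1, 2 and 3, and at 37.0, 12.3 and 14.2 FPKM in WT replicates 1, 2 and 3. The genotypes did not overlap, and WT replicate 1 was well above the other WT libraries. The miR172 values rest on 85, 58 and 82 recovered reads, with a counting error of 10.8 to 13.1% of the value, and the WT values on 1178, 331 and 547 reads. Its rank by abundance was 22337, 23985 and 19257 in the miR172 replicates and 3603, 9416 and 8429 in the WT replicates.

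By group means MD01G1234400 was 11.1-fold lower in miR172 skin, and 6.96-fold lower without WT replicate 1. Its log2 change was -2.79 ± 0.42 (standard error), with limma adjusted p = 0.0068 and a 95% interval of -3.75 to -1.83. Since the pseudocount of 1 is close to the miR172 level of this gene, its log2 fold change understates the fall, and with a pseudocount of 0.1 it was -3.28 (limma adjusted p = 0.010). Both glucosyltransferase genes carry the same name in the list, and whether reads are shared between them was not tested.

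The count of 3 genes lower of 3 tested, with 0 higher, stands against 3.35% of all 24668 genes that were called lower in miR172 skin (limma, adjusted p under 0.05). That share is 827 genes, beside 1291 called higher, while scaling to recovered read totals gave 469 lower and 1678 higher. Genes called lower numbered 282 without miR172 replicate 1, 269 without miR172 replicate 2, 357 without WT replicate 2 and 248 without WT replicate 3. They numbered 1158 without WT replicate 1 and 1091 without miR172 replicate 3. The 3 genes were among them each time. Likewise all 3 miR172 libraries lay under all 3 WT libraries for each of these genes, as they did for 14.9% of the genes tested. The median log2 fold change was -2.79 over the 3 genes and -0.0033 over all genes tested. Since the genes were chosen with earlier results of these data known, these counts are a description and not independent support. With 3 libraries against 3, the exact permutation test of a single gene cannot give a two-sided p under 0.1, and that was its value for each of the 3 genes.

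Ordered from the largest fall, the log2 fold change of MD17G1272100 was number 18 of the 24668 genes tested, that of MD01G1234400 number 133 and that of MD07G1306900 number 153. Ranks were also taken among genes of like level in WT skin. Of 175 tested genes within 2-fold of the WT mean of MD17G1272100, it had the fall numbered 3. MD07G1306900 was number 49 of 1601 genes within 2-fold of its WT mean, and MD01G1234400 number 44 of 6945. These ranks describe the libraries at hand and were not tested.

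**Figure D2:**
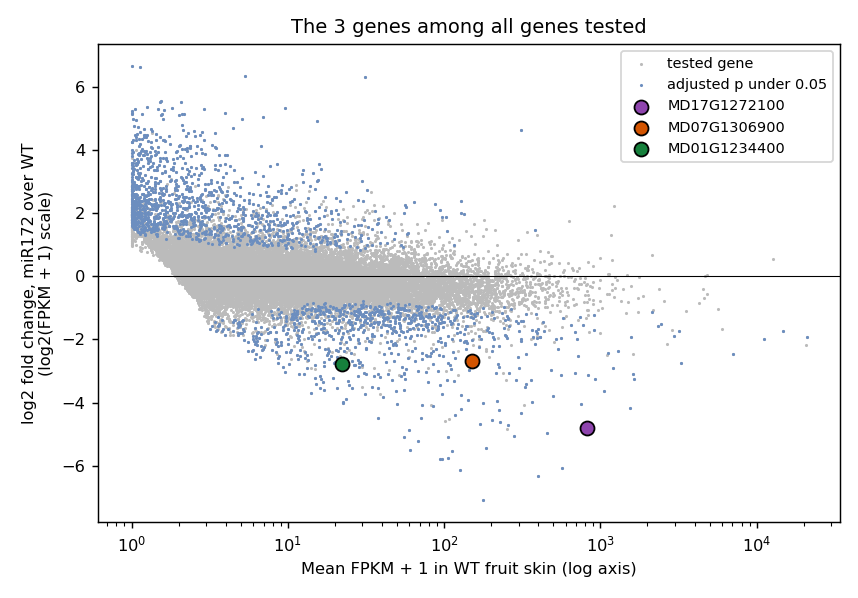
Log2 fold change of miR172 over WT skin, on the log2(FPKM + 1) scale, against the mean FPKM + 1 in WT skin on a log axis, with 1 point for each of the 24668 genes tested and blue points for adjusted p under 0.05. The 3 named genes lie at -4.80, -2.67 and -2.79, under the bulk of genes at their level.

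The authors' scaling differs from scaling to the recovered read totals, so the levels were also taken as RPM, the recovered reads of a gene scaled to the recovered total of the library. On this scale, which is not per length, MD17G1272100 stood at 38.8, 9.996 and 91.7 RPM in miR172 replicates 1, 2 and 3 and at 1045, 717 and 640 RPM in WT replicates 1, 2 and 3. MD07G1306900 averaged 47.0 ± 20.5 RPM in miR172 skin and 237 ± 52.5 RPM in WT skin, and MD01G1234400 averaged 3.77 ± 1.06 RPM in miR172 skin and 34.9 ± 23.7 RPM in WT skin (SD, n = 3 each). The genotypes did not overlap for any of the 3 genes on this scale either. These are the same libraries rescaled, so this is no separate support. The share of all genes without overlap was not counted in RPM. In FPKM, all 3 miR172 libraries lay under all 3 WT libraries for 14.9% of the genes tested. Under this scaling the log2 fold changes were -4.50 for MD17G1272100, -2.38 for MD07G1306900 and -2.53 for MD01G1234400, and that of the median gene was 0.25. Relative to that median the fold changes were -4.76 for MD17G1272100, -2.63 for MD07G1306900 and -2.79 for MD01G1234400. Taking off the median largely undoes the scaling, so these last values are no separate check.

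The order of the 3 levels in FPKM was the same in 5 of the 6 libraries, with the transport gene highest and MD01G1234400 lowest. In miR172 replicate 2 the order of the top pair turned, with MD17G1272100 at 8.14 FPKM and MD07G1306900 at 29.9 FPKM. The ratio of MD17G1272100 to MD07G1306900 within a library was 2.72, 0.272 and 2.62 in miR172 replicates 1, 2 and 3 and 5.86, 6.26 and 4.52 in WT replicates 1, 2 and 3. The ratio was lower in every miR172 library than in any WT library, and the WT libraries spread less. The log2 ratio, after adding 1 FPKM to each gene, differed by -2.13 ± 1.05 between miR172 and WT (SE, n = 3 each, two-sided exact permutation p = 0.1, or 0.15 adjusted over the 3 pairs of genes), and by -1.09 without miR172 replicate 2.

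The ratio of MD17G1272100 to MD01G1234400 was 14.9, 6.61 and 35.2 in miR172 replicates 1, 2 and 3 and 28.3, 62.0 and 46.6 in WT replicates 1, 2 and 3. Here the genotypes overlapped in the plain ratio. After adding 1 FPKM the log2 ratio was lower in every miR172 library and differed by -2.01 ± 0.82 (SE, n = 3 each, two-sided exact permutation p = 0.1, adjusted 0.15), while with no pseudocount the difference was -1.52 (exact permutation p = 0.2). A larger fall of the transport gene than of either glucosyltransferase gene was therefore not shown, in a design whose smallest p is 0.1.

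Between the glucosyltransferase genes, the ratio of MD07G1306900 to MD01G1234400 was 5.47, 24.3 and 13.4 in miR172 replicates 1, 2 and 3 and 4.83, 9.91 and 10.3 in WT replicates 1, 2 and 3. The values interleaved, and the log2 ratio differed by 0.12 ± 0.64 (SE, n = 3 each, two-sided exact permutation p = 0.8, adjusted 0.8). That difference grew as the pseudocount shrank, to 0.33 with 0.5, 0.55 with 0.1 and 0.62 ± 0.72 with none (SE, n = 3 each, exact permutation p = 0.4). Without WT replicate 1 the difference in the log2 ratio was -0.21, so its direction depended on single libraries. A difference between genotypes in the balance of the pair was not detected, which does not show that they changed alike.

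**Figure D3:**
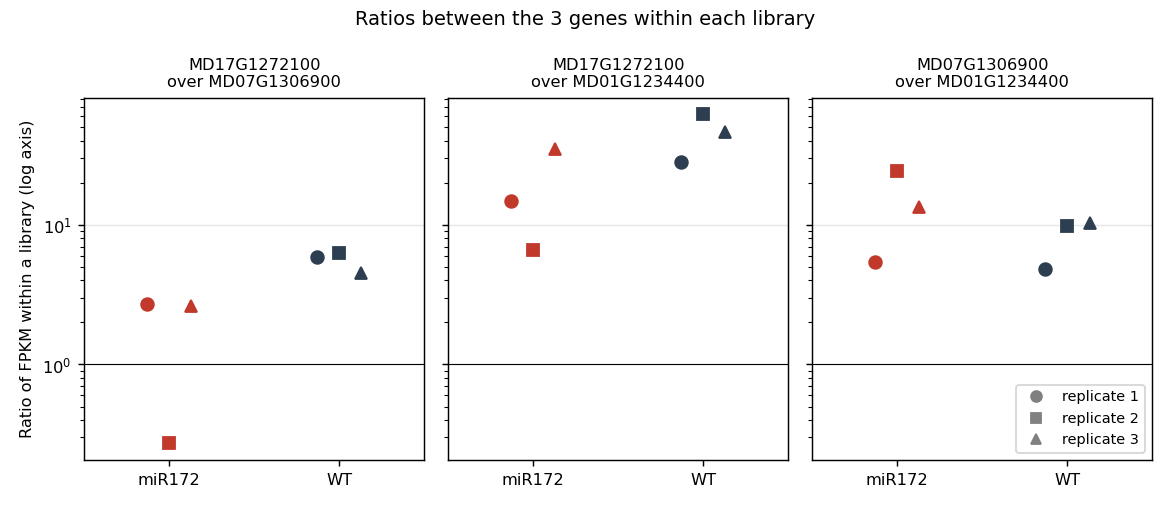
Ratio of FPKM between 2 of the genes within each library on a log axis, 1 point per library, with a line at a ratio of 1. The miR172 points of MD17G1272100 over MD07G1306900 lie under the WT points, with miR172 replicate 2 at 0.272, while the points of MD07G1306900 over MD01G1234400 interleave between the genotypes.

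Summed over both glucosyltransferase genes, the level was 26.8 ± 12.8 FPKM in miR172 skin and 170 ± 41.6 FPKM in WT skin (SD, n = 3 each). MD07G1306900 made up 84.5, 96.0 and 93.1% of that sum in miR172 replicates 1, 2 and 3 and 82.8, 90.8 and 91.2% in WT replicates 1, 2 and 3. In both genotypes replicate 1 held the smallest share from MD07G1306900. The glutathione S-transferase gene stood at 2.30, 0.261 and 2.44 times the sum in the miR172 replicates and 4.85, 5.68 and 4.12 times the sum in the WT replicates.

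The genes also differed in how they varied among libraries of 1 genotype. In miR172 skin, replicate 3 was the highest for all 3 genes, at 10.9% of the WT mean for MD17G1272100, 23.1% for MD07G1306900 and 12.1% for MD01G1234400. The lowest miR172 library was replicate 2 for MD17G1272100, at 0.990% of the WT mean, and for MD01G1234400, at 5.83%, but replicate 1 for MD07G1306900, at 7.05%. In WT skin, replicate 1 was the highest library for all 3 genes, at 127% of the WT mean for MD17G1272100, 120% for MD07G1306900 and 175% for MD01G1234400. The coefficient of variation in miR172 skin was 101% for MD17G1272100, 50.9% for MD07G1306900 and 34.7% for MD01G1234400, against 24.3, 19.2 and 65.0% for the same genes in WT skin.

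Likeness of profile was measured as the root mean square difference of log2(FPKM + 1) over the 6 libraries, after the mean of each gene was taken off. By this measure MD01G1234400 and MD07G1306900 differed by 0.64, where the median distance of all tested genes was 1.53 from MD01G1234400 and 1.49 from MD07G1306900. MD07G1306900 was the gene numbered 99 in likeness to MD01G1234400, and MD01G1234400 that numbered 116 in likeness to MD07G1306900. MD17G1272100 was farther from both, at 1.298 from MD01G1234400 and 1.495 from MD07G1306900. By likeness to MD07G1306900 it was number 12522, no closer than the median tested gene, and by likeness to MD01G1234400 number 4256. Ordered by likeness to MD17G1272100, however, MD01G1234400 was number 69 and MD07G1306900 number 132, where the median distance was 2.62. The measure is not scaled for the size of a gene's changes, so these ranks depend on which gene they start from. The libraries span both genotypes, so the distances partly restate how far the log2 changes of 2 genes differ. Likeness beyond the size of the fall was not tested.

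The genes most like each of the 3 are given by identifier only, since no name is at hand. Nearest to MD17G1272100 were MD09G1028900, at 0.45, and MD08G1005500, at 0.61. MD09G1028900 averaged 12.1 ± 14.8 FPKM in miR172 skin and 201 ± 5.13 FPKM in WT skin (SD, n = 3 each). Nearest to MD07G1306900 were MD06G1138200 and MD05G1260700, at 0.31 and 0.32, and nearest to MD01G1234400 were MD07G1248400, at 0.15, and MD09G1095200, at 0.21. These profiles were picked from 24668 genes over 6 libraries and are a description, with no p.

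The identifiers next to each gene, which follow the order along the chromosome, were looked up as well. Of the 12 identifiers up to 2 places away, 7 passed the filter on low values, and 0 of these were called by limma in either direction, beside 8.59% of all genes tested, so a count of 0 among 7 is near that background. Voom on the recovered reads also called 0 of them. An unadjusted p under 0.05 (limma) was found for 2 neighbours, MD17G1272200 and MD07G1307100, which differed in opposite directions. The share of all genes tested at that unadjusted p was not counted, so these 2 of 7 are a description only. The neighbours of MD01G1234400 with the nearest numbers, MD01G1234300 and MD01G1234500, had 23.1 ± 1.32 and 12.8 ± 1.51 FPKM in miR172 skin against 29.3 ± 9.78 and 12.7 ± 4.81 FPKM in WT skin (SD, n = 3 each). Beside MD07G1306900, MD07G1306800 stood at 32.3 ± 4.26 FPKM in miR172 skin and 51.7 ± 14.8 FPKM in WT skin, with limma adjusted p = 0.21. Next to MD17G1272100, MD17G1272000 was listed at 0 in all 6 libraries. MD17G1272200, on the other side, had 13.1, 11.7 and 12.9 FPKM in miR172 replicates 1, 2 and 3 and 29.2, 19.4 and 23.4 FPKM in WT replicates 1, 2 and 3, with limma adjusted p = 0.057. It was thus lower in each miR172 library without passing the threshold. All 3 miR172 libraries lay under all 3 WT libraries for 14.9% of the genes tested. MD07G1307100, beyond MD07G1306900, had 6.78, 3.10 and 5.34 FPKM in miR172 replicates 1, 2 and 3 and 1.35, 0 and 2.89 FPKM in WT replicates 1, 2 and 3, with a log2 change of 1.49 ± 0.51 (standard error) and limma adjusted p = 0.12. It was higher in each miR172 library, also without passing the threshold, and the share of all genes higher in this way was not counted.

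**Figure D4:**
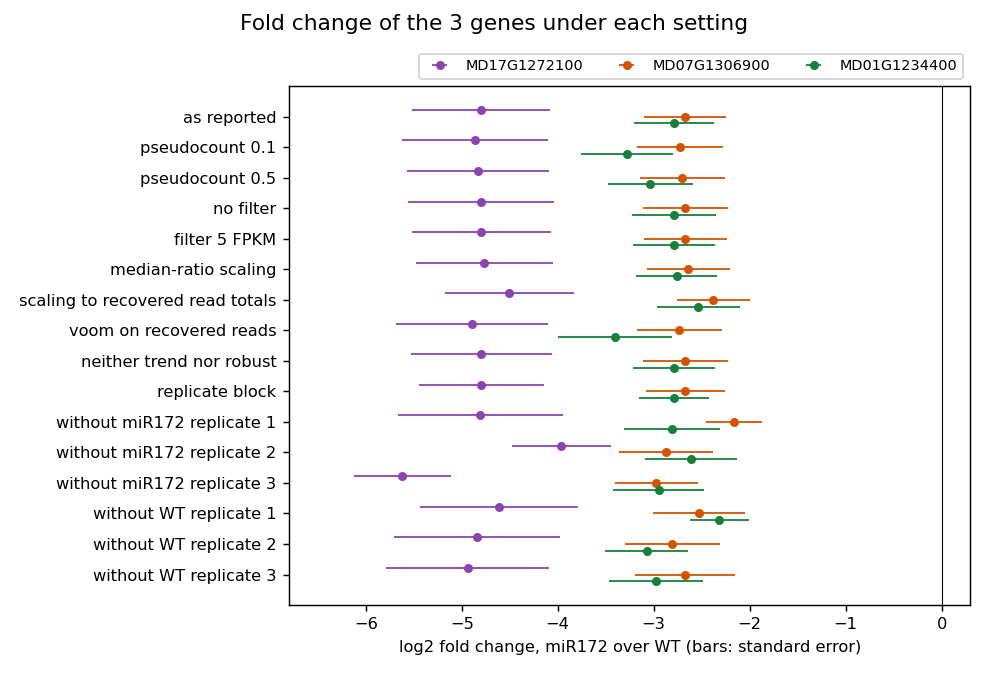
Log2 fold change of miR172 over WT for the 3 genes as reported and under each alternative setting, with bars for the standard error and a line at 0. Every point lies left of 0, from -5.62 for MD17G1272100 without miR172 replicate 3 to -2.16 for MD07G1306900 without miR172 replicate 1.

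The fold changes held their direction and stayed past the threshold in all 15 alternatives for each gene, as the plot of the alternatives shows. Since every miR172 library lay under every WT library, dropping 1 of them could not turn a direction, and the steady direction is no further evidence. Adjusted p ran from 0.0020 to 0.034 for MD17G1272100, from 0.0083 to 0.040 for MD07G1306900 and from 0.0023 to 0.034 for MD01G1234400 (limma, over all genes tested).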

How the data were processed

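RNA from 3 miR172 and 3 WT fruit skin samples was sequenced as paired-end, poly-A selected, strand-specific libraries and aligned to GDDH13 with Bowtie2, per the labels' protocols. The submitters' processing notes also list, with no roles, DESeq2 (1.16.1), featureCounts (1.5.0-p3), StringTie (1.3.3b) and HISAT2 (2.0.5). The deposited values are FPKM, per the file headers. How they were scaled between libraries, and whether counting used strand, is information not given in the sources used here. Another 12 columns, in 4 tables of flower samples, were not used, since no sample described in the labels at hand matches them. Of 48602 identifiers, 0 matched the RefSeq gene table (assembly GDT2T_hap1), so the list of pathway genes laid down by product name had no members.

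Whole reads were recovered with the shortest gene length that made reads whole in every library (within 0.0001 reads plus a relative 3e-09), for all 37804 genes above 0, by a method tested on simulated data. The divisors behind the FPKM were 0.899 to 1.20 times the recovered total in miR172 libraries and 0.833 to 0.883 times in WT libraries.

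Genotypes were compared with limma 3.58.1 under R 4.3.3 (trend, robust) on log2(FPKM + 1), for genes averaging 1 FPKM or more, two-sided, with Benjamini-Hochberg adjustment over all genes tested and a threshold of 0.05. Ratios were compared by exact permutation in scipy 1.17.1. Counting errors cover counting only. Chi-square per gene between replicates was at least 32.5, so no library looked deposited more than once. The named genes were the 3 listed, the 2 of most like profile for each, and identifiers up to 2 places away. The genes, lists and tests were chosen with earlier results of these data known. The 2 ratios with MD17G1272100 and the ratios with no pseudocount were added after the values were seen.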

Additional observations from a re-analysis of the deposited data

How the results depend on the processing

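The fold changes of MD17G1272100, MD07G1306900 and MD01G1234400 kept direction and call under all 15 alternatives each. Leaving out each library gave -5.62 to -3.96 for MD17G1272100, -2.97 to -2.16 for MD07G1306900 and -3.07 to -2.32 for MD01G1234400 on the log2 scale. With voom on recovered reads MD01G1234400 was at -3.40. The replicate block left the 3 fold changes at -4.80, -2.67 and -2.79 and called 2308 genes against 2118. Deviations from the genotype mean correlated between same-numbered libraries at 0.10, 0.10 and 0.039. For miR172 replicate 2 the correlation was 0.101 with WT replicate 2 and 0.103 with WT replicate 3. Values this small and close cannot decide whether the numbers pair the samples. The labels state no pairing, so the main fit took the samples as unpaired. Of all genes, 2118 were called (827 lower), against 1268 with voom on recovered reads, 816 to 2622 (248 to 1158 lower) with each library left out, and 534 lower with no filter. Scaling to recovered read totals called 1678 genes higher and 469 lower. The causes were not tested. The log2 ratio of MD07G1306900 to MD01G1234400, miR172 minus WT, was 0.12 with a pseudocount of 1 and 0.33, 0.55 and 0.62 with 0.5, 0.1 and none. It ran from -0.26 to 0.65 with each library left out, and its direction turned without miR172 replicate 2, miR172 replicate 3 or WT replicate 1. Of the 3 genes, MD01G1234400 had the fewest reads, with 58 to 85 in the miR172 libraries. Its counting error there, 10.85 to 13.13%, was under its coefficient of variation among those libraries, 34.75%.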
